A study of Homo sapiens with 4 samples.

Results

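The ATF4 amino acid response genes examined here are 52 named genes, of which 51 are among the 16813 listed in the RNA sequencing data of PC9 and PC9OR cells. ASNS, which makes asparagine, had a higher level in PC9OR cells, and the question was whether the genes that ATF4 is known to control with it moved in the same way. The list was selected from knowledge of the pathway once the difference in ASNS between the lines had been seen, so the values of ASNS are given as a description, with no test. Counts of other members are given with ASNS left out. The other members were named with results of these libraries in view, so their tests are those of the fit over all genes and no test was run on the list as a set.

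PC9 is a human lung adenocarcinoma line with a mutant EGFR, and PC9OR is a derivative of it that resists osimertinib, an inhibitor of mutant EGFR. The labels give the genotype of both lines as WT and the phenotypes as control and osimertinib resistant. Both were grown in RPMI medium with 10% fetal bovine serum, and the labels do not say whether drug was present before harvest. There were 2 libraries of each line, labelled as biological replicates, and 1 resistant line, so resistance and every other way in which these cultures differ cannot be told apart. In bulk RNA, a larger share of cells that express a gene cannot be told apart from more RNA per cell.

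Cells under amino acid shortage or protein folding stress phosphorylate the translation factor eIF2 through the kinases GCN2 (EIF2AK4), PERK (EIF2AK3) and their relatives. General translation then falls while the mRNA of the transcription factor ATF4 is translated more, because short reading frames upstream of its coding sequence stop blocking it, so ATF4 protein can rise without its mRNA. ATF4 pairs with C/EBP proteins on composite elements in its target genes, and those targets make or import amino acids, charge tRNAs and feed back on the response.

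The element that ATF4 and C/EBP bind has the core TGATGNAA, where N is any base. It was searched for on both strands of RefSeq promoter windows (GRCh38.p14), from 250 bases before to 50 bases after each start site. These stretches are shown because they carry that core in members that rose in PC9OR cells (CEBPG, IARS1, NARS1), fell (SLC7A1, SLC38A1) or passed neither test (CHAC1), next to ASNS. Each is 29 bases long and reads 5′ to 3′ on the strand of the core, which is in capitals with the base that follows it.
ASNS, chr7:97872458-97872486, minus strand: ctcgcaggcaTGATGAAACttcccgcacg
CEBPG, chr19:33374061-33374089, plus strand: gcgcggcgtcTGATGCAACctgccggcaa
IARS1, chr9:92293693-92293721, plus strand: cgcacggaggTGATGCAACgcgctgaaaa
NARS1, chr18:57621804-57621832, minus strand: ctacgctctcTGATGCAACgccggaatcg
CHAC1, chr15:40953251-40953279, minus strand: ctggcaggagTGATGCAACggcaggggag
SLC7A1, chr13:29595663-29595691, minus strand: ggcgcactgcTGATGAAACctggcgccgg
SLC38A1, chr12:46266502-46266530, minus strand: cagacccgaaTGATGAAAAgggatcagct
CEBPG, IARS1, NARS1 and CHAC1 shared the same 9 letters, TGATGCAAC, and ASNS and SLC7A1 shared TGATGAAAC. AARS1, CARS1 and MARS1, which passed neither test and are not shown, also had TGATGCAAC. The core lay 68 bases before the start site of ASNS, where it reads in the direction of the gene.

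Library sums of the expected counts, the estimated reads per gene that the authors deposited, ran from 23201307 to 32203998. The PC9 libraries differed more from each other than the PC9OR libraries did, the biological coefficient of variation being 0.241 and 0.104. That difference followed transcript length. The rank correlation of length with the log2 difference, across 11064 genes that are no independent replicates, was -0.47 for PC9 replicate 2 minus replicate 1, 0.00 for the PC9OR libraries and -0.41 for PC9OR minus PC9. Values with offsets that remove each library's trend with length were therefore computed too, and are drawn for the members in the plot by role and given in the text for some of them. The epithelial markers were above 1 CPM (counts scaled to the TMM-normalized library size) in every library for 6 of 6 genes. EPCAM had a log2 fold change of -0.01, KRT8, KRT18 and KRT19 rose by 1.28, 1.13 and 0.96, and CDH1 and EGFR had -1.46 and -1.46, both lower at an adjusted p under 0.05. By contrast, the lung lineage markers SFTPB, SFTPC and SFTPA1 were listed in no library and NKX2-1 and NAPSA reached at most 0.38 and 0.34 CPM. The fibroblast markers summed to between 1.01 and 1.19 CPM. The 3 endothelial markers summed to 37.0 and 24.0 CPM in PC9 and 5.06 and 5.35 CPM in PC9OR cells, nearly all of it CDH5. The 4 leukocyte markers summed to 15.8 and 12.7 CPM in PC9 and 6.93 and 6.35 CPM in PC9OR cells, nearly all of it CD68, with PTPRC at no more than 0.04 CPM. CDH5 and CD68 were thus lower in PC9OR cells, and the part of these and of the epithelial shifts in the results was not tested.

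Of the 52 members, 51 were listed and passed the filter on low counts, and FGF21, a secreted hormone, was listed in no library. Beside ASNS, 12 of the 50 members rose in PC9OR cells, 7 fell and 31 passed neither test, at an adjusted p under 0.05 by the quasi-likelihood test of edgeR with Benjamini-Hochberg adjustment over 13148 genes. That is 24% of the members higher, where 15.6% of all genes tested were higher, and 14% lower, where 20.8% of all genes tested were lower. CBS, with 0 counts in both PC9 libraries, passed the filter only through PC9OR and could only come out higher, and without it 11 of 49 members rose, or 22.4%, where 15.4% of the genes with counts in both lines did. The median log2 fold change of the 50 members was 0.22, and that of all genes tested was 0.01. In 26 of the 50 members both PC9OR libraries exceeded both PC9 libraries (39.6% of all genes tested), and in 18 both were below (38.2% of all genes tested). Among the 26 are CBS and NUPR1, which passed the filter only through PC9OR. NUPR1 had 3 and 7 counts in the PC9 libraries and 21 and 14 in the PC9OR libraries. The median log2 fold change of all 51 members, ASNS included, was 0.23. It was 0.14 without PC9OR replicate 1 and 0.26 without PC9OR replicate 2. Dropping PC9 replicate 1 gave 0.19 and dropping PC9 replicate 2 gave 0.25. A fit with 1 library in a line takes its spread from the other line alone, and that spread was larger in PC9. Calls of such fits are therefore not used here and are given only in the section on how the results depend on the processing. With the spread taken from the other line, they cannot show how far the 19 calls rest on a single library.

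More than 2-fold differences were few and went both ways. ASNS apart, CTH, PHGDH, DDIT4 and CBS rose more than 2-fold at an adjusted p under 0.05 (6.13% of all genes tested did). SLC7A1, VLDLR and SLC6A9 were more than 2-fold lower (11.6% of all genes tested). At more than 2-fold and an adjusted p under 0.001, the threshold of the study, edgeR called 0 of all 13148 genes (0.0%), so its 0 members say nothing of them. ASNS apart, DESeq2's Wald test called 7 of the 50 members there (12.8% of all genes it tested), and in edgeR 27 of the 50 had an unadjusted p under 0.05 (50.6% of all genes tested).

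**Figure D1:**
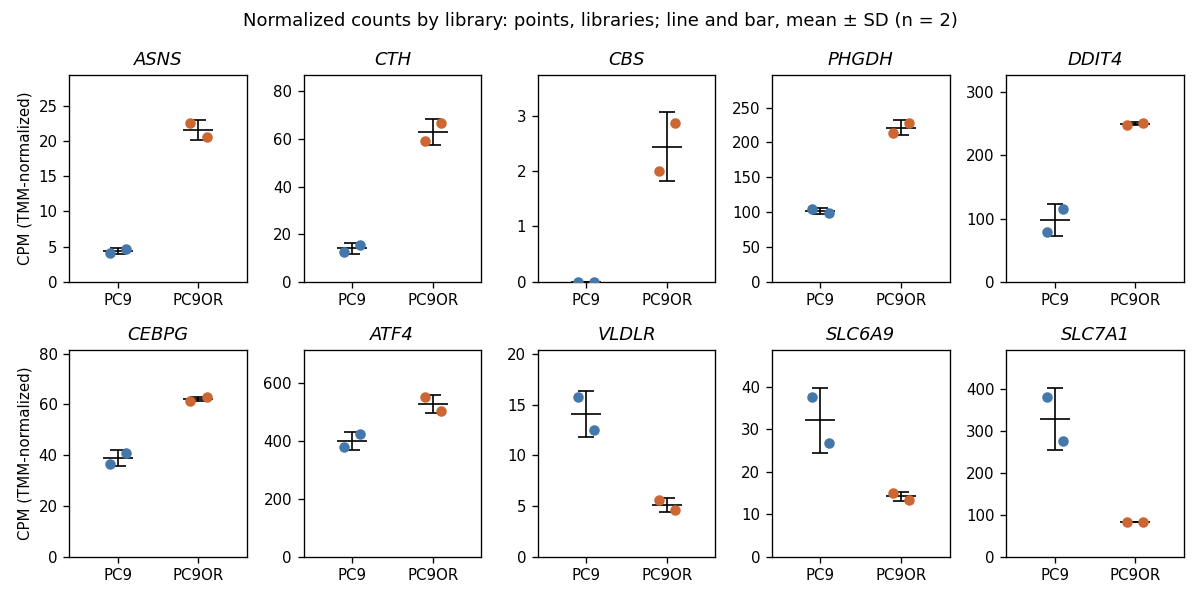
Normalized counts (CPM, linear axes from 0) of 10 members in each library, PC9 in blue and PC9OR in orange, with the mean and SD of the 2 libraries of a line. ASNS, CTH, CBS, PHGDH, DDIT4, CEBPG and ATF4 were higher in both PC9OR libraries than in both PC9 libraries, and VLDLR, SLC6A9 and SLC7A1 were lower; the difference in ATF4 did not pass the test.

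Of the genes that make amino acids and one-carbon units, ASNS apart, 5 of 12 rose in PC9OR cells (CTH, CBS, PHGDH, SHMT2 and MTHFD2), 0 fell and 7 passed neither test, with a median log2 fold change of 0.26. Those 5 are 41.7% of these genes, where 15.6% of all genes tested rose and 20.8% fell. Without CBS, which could only come out higher, 4 of 11 rose, or 36.4%. ASNS had 4.09 and 4.68 CPM in PC9 and 22.7 and 20.6 CPM in PC9OR cells. Its log2 fold change was 2.30 (SE 0.18), a 4.92-fold difference, and ran from 2.20 to 2.38 with each library left out in turn. ASNS lies on chromosome 7 of GRCh37 from 97480989 to 97501854, and the 20 nearest genes tested there had a median log2 fold change of -0.09.

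CTH, which cleaves cystathionine to cysteine, had 12.4 and 15.6 CPM in PC9 and 59.0 and 66.9 CPM in PC9OR cells. The lines were well apart, with a log2 fold change of 2.17 (SE 0.16, adjusted p = 0.00445 by the quasi-likelihood test of edgeR with Benjamini-Hochberg adjustment). CTH lies on chromosome 1 of GRCh37 from 70876901 to 70905534, among 20 tested genes with a median log2 fold change of 0.29. CBS makes the cystathionine that CTH uses. It had 0 counts in both PC9 libraries and 64 and 92 counts in the PC9OR libraries, or 2.00 and 2.88 CPM, and against a floor of 3 counts in each PC9 library it was at least 21.0-fold higher. These levels are low, and a near-identical copy of CBS that the later assembly lists has no values of its own in these data. The 20 tested genes nearest to CBS, on chromosome 21 of GRCh37 from 44473301 to 44497053, had a median log2 fold change of -0.39.

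PHGDH, the enzyme that opens the serine pathway, had 105 and 98.3 CPM in PC9 and 214 and 228 CPM in PC9OR cells. It rose by a log2 fold change of 1.12 (SE 0.11, adjusted p = 0.00547 by the quasi-likelihood test of edgeR with Benjamini-Hochberg adjustment). The next enzymes of the same pathway had smaller values that passed no test, a log2 fold change of 0.23 for PSAT1 (adjusted p = 0.16) and 0.03 for PSPH (adjusted p = 0.828). PHGDH lies on chromosome 1 of GRCh37 from 120191034 to 120286841, and its 20 nearest tested genes had a median log2 fold change of -0.06. PSPH overlapped between the lines, at 104 and 114 CPM in PC9 and 109 and 114 CPM in PC9OR cells.

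SHMT2 and MTHFD2, which pass serine carbon to folate in mitochondria, rose in PC9OR cells by 0.55 (adjusted p = 0.0298) and 0.53 (adjusted p = 0.0412) on the log2 scale. SHMT2 had 113 and 135 CPM in PC9 and 183 and 180 CPM in PC9OR cells, so the lines did not overlap. With offsets for length and GC content MTHFD2 had a log2 fold change of 0.19 and an adjusted p of 0.0947, past the threshold no more. SHMT1, the cytosolic counterpart of SHMT2, had a log2 fold change of -0.02 and the mitochondrial MTHFD1L one of 0.30, both without a call. For proline, ALDH18A1 had 0.08 and PYCR1 0.20, and GPT2, an alanine aminotransferase, had -0.13, also without a call.

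**Figure D2:**
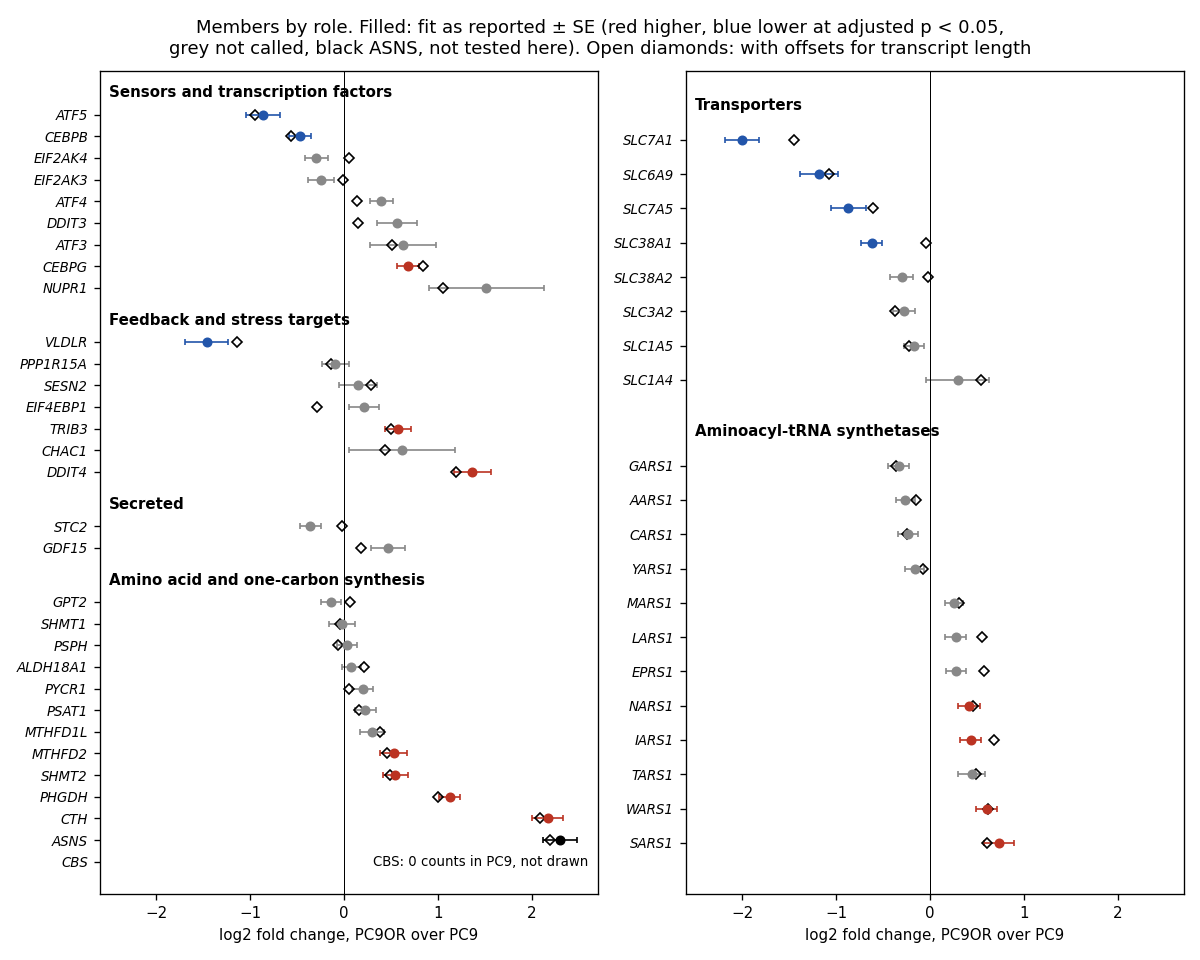
Log2 fold change of PC9OR over PC9 cells for the members by role, with bars of ± SE. Filled points are red for members that rose, blue for those that fell, grey for no call and black for ASNS, and open diamonds are values with offsets for transcript length. CBS, with 0 counts in PC9 cells, is not drawn. Filled points of amino acid synthesis lay to the right of 0 except for GPT2 and SHMT1, those of transporters to the left except for SLC1A4, and those of synthetases on both sides.

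Of the 8 amino acid transporters, 4 fell in PC9OR cells (SLC7A1, SLC6A9, SLC7A5 and SLC38A1), 0 rose and 4 passed neither test, with a median log2 fold change of -0.46. That is 50% lower, where 20.8% of all genes tested fell and 15.6% rose. SLC7A1, which carries arginine and lysine, had 379 and 276 CPM in PC9 and 82.0 and 82.5 CPM in PC9OR cells. Its log2 fold change was -1.99 (SE 0.18, adjusted p = 0.00527 by the quasi-likelihood test of edgeR with Benjamini-Hochberg adjustment). Its transcript is 7343 bases long, and offsets for length gave -1.45. Its position is 30083551 to 30169825 on chromosome 13 of GRCh37, where the 20 nearest tested genes had a median log2 fold change of 0.01.

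The glycine transporter SLC6A9 had 37.5 and 26.7 CPM in PC9 and 14.9 and 13.4 CPM in PC9OR cells, a log2 fold change of -1.18 (adjusted p = 0.015). Its 20 nearest tested genes, around 44457172 to 44497139 of chromosome 1 of GRCh37, had a median of -0.69, lower than around the other members located here. SLC7A5, the light chain of the leucine exchanger, had 295 and 217 CPM in PC9 and 151 and 129 CPM in PC9OR cells, a log2 fold change of -0.87 (adjusted p = 0.0243). With the offsets for length SLC7A5 had -0.61. Its heavy chain partner SLC3A2 had a log2 fold change of -0.27 (adjusted p = 0.121). With the offsets for length SLC3A2 was called lower, at -0.37 (adjusted p = 0.0308 by the quasi-likelihood test of edgeR with Benjamini-Hochberg adjustment).

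SLC38A1, a glutamine carrier with a transcript of 7772 bases, fell by 0.62 on the log2 scale (adjusted p = 0.0148). The offsets for length left -0.05, and the call was lost. Its relative SLC38A2 had 995 and 1143 CPM in PC9 and 863 and 870 CPM in PC9OR cells, a log2 fold change of -0.30 (adjusted p = 0.0996) without the offsets and -0.03 with them. SLC1A5 had -0.17 and SLC1A4 0.29 (SE 0.34), both neutral amino acid carriers without a call. SLC1A4 had few counts, 32 and 48 in the PC9 libraries and 59 and 60 in the PC9OR libraries. The transporters had a median length of 4573 bases, against 2989 bases for all genes tested, and with the offsets their median log2 fold change was -0.30, with 4 members lower and 0 higher. In that fit 18.8% of all genes tested were lower and 20.5% higher.

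Aminoacyl-tRNA synthetases load each tRNA with its amino acid. Of the 12 on the list, 4 rose in PC9OR cells (SARS1, WARS1, IARS1 and NARS1), 0 fell and 8 passed neither test, and the median log2 fold change was 0.27. Those 4 are 33.3% of the 12, where 15.6% of all genes tested rose and 20.8% fell. SARS1, for serine, had 181 and 237 CPM in PC9 and 347 and 346 CPM in PC9OR cells, a log2 fold change of 0.73 (adjusted p = 0.0243). WARS1, for tryptophan, had 53.8 and 50.0 CPM in PC9 and 77.4 and 80.4 CPM in PC9OR cells, a log2 fold change of 0.61 (adjusted p = 0.0169). Neither of these genes overlapped between the lines. IARS1, for isoleucine, rose by 0.43 (adjusted p = 0.0359) and NARS1, for asparagine, by 0.42 (adjusted p = 0.0499). With the offsets for length IARS1 had 0.68. NARS1, which charges tRNA with the product of ASNS, lost its call without the filter on low counts and in both fits on FPKM.

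The synthetases for alanine, cysteine, glycine and tyrosine lay below 0, with log2 fold changes of -0.26 for AARS1, -0.24 for CARS1, -0.33 for GARS1 and -0.16 for YARS1. With offsets for length and GC content AARS1 and YARS1 turned to 0.02 and 0.08. None of these 4 passed the test. Both PC9OR libraries were below both PC9 libraries in each, as they were in 38.2% of all genes tested. MARS1, LARS1, EPRS1 and TARS1 had 0.26, 0.27, 0.28 and 0.44, with no call. With the offsets for length these 4 were called higher, which made 8 of 12 synthetases higher and GARS1 lower (-0.36), and the median log2 fold change was 0.47. Over the 50 members, the offsets gave 16 higher, 12 of them among those above (20.5% of all genes tested were higher in that fit), and 8 lower, 6 of them among those above (18.8% of all genes tested).

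**Figure D3:**
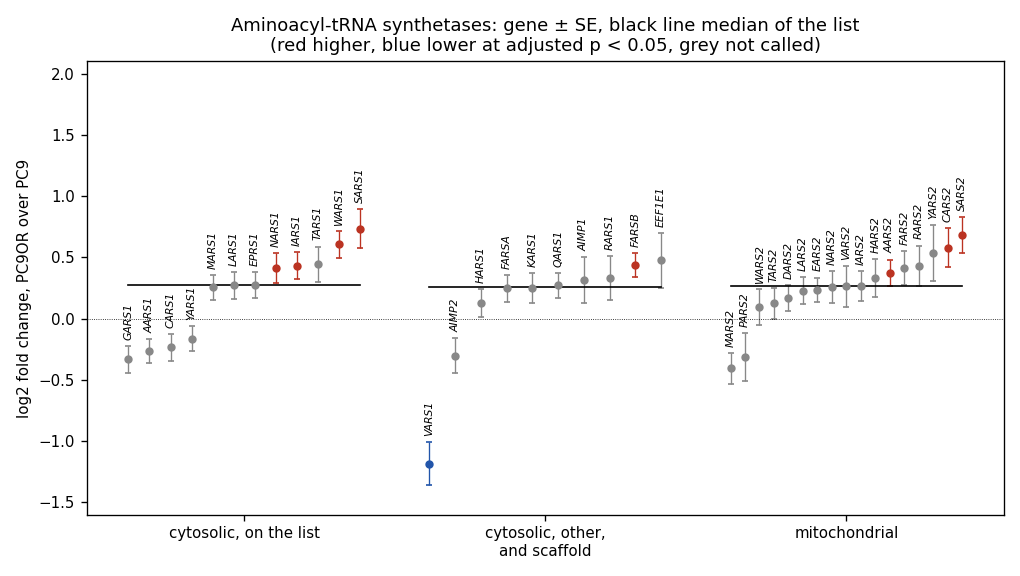
Log2 fold change of PC9OR over PC9 cells for single synthetase genes (points, ± SE) and the median of each list (black line). The 12 cytosolic synthetases on the list, the 10 other cytosolic synthetases and scaffold proteins and the 17 mitochondrial synthetases had medians of 0.27, 0.26 and 0.26, and of 0.47, 0.12 and 0.38 with offsets for length, which are not drawn.

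The synthetases that are not on the list served for comparison. Of 10 other cytosolic synthetases and scaffold proteins, 1 rose and 1 fell, with a median log2 fold change of 0.26. That is 10% each, where 15.6% of all genes tested rose and 20.8% fell. FARSB, a subunit of the synthetase for phenylalanine, had 149 and 150 CPM in PC9 and 202 and 203 CPM in PC9OR cells, a log2 fold change of 0.44 (adjusted p = 0.0268). VARS1, for valine, had -1.18 (adjusted p = 0.0112 by the quasi-likelihood test of edgeR with Benjamini-Hochberg adjustment). Of 17 mitochondrial synthetases, 3 rose (17.6%, near the 15.6% of all genes tested) and 0 fell, with a median of 0.26. With the offsets for length, 2 of the 10 were called higher and 2 lower, with a median of 0.12, and 6 of the 17 higher and 0 lower, with a median of 0.38, beside 8 of 12 higher and a median of 0.47 on the list. In that fit 20.5% of all genes tested were higher and 18.8% lower. No difference between the 3 lists was tested.

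ATF4 itself was the most abundant member per length in both lines, at 206 ± 13.3 FPKM (SD, n = 2) in PC9 and 268 ± 20.4 FPKM (SD, n = 2) in PC9OR cells. In normalized counts it had 379 and 424 CPM in PC9 and 552 and 506 CPM in PC9OR cells. Its log2 fold change of 0.40 (SE 0.12) just missed the threshold, with an adjusted p of 0.0546 by the quasi-likelihood test of edgeR with Benjamini-Hochberg adjustment. DESeq2's Wald test gave 0.0172, and with the offsets for length the log2 fold change was 0.13 (adjusted p = 0.307). Offsets for length and GC content gave 0.27 (adjusted p = 0.0466 by the edgeR test). ATF4 was also called with at least 10 counts required in every library, so its call depends on the fit. Its position is 39915700 to 39918688 on chromosome 22 of GRCh37, and its 20 nearest tested genes had a median log2 fold change of 0.13. The mRNA does not measure ATF4 protein.

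Of the 9 sensors and transcription factors, 1 rose (CEBPG), 2 fell (ATF5 and CEBPB) and 6 passed neither test. That is 11.1% higher and 22.2% lower, near the 15.6% and 20.8% of all genes tested. CEBPG, a dimer partner of ATF4, had 36.6 and 41.0 CPM in PC9 and 61.5 and 62.8 CPM in PC9OR cells, a log2 fold change of 0.68 (adjusted p = 0.0149). CEBPB, another C/EBP partner, had 46.5 and 49.4 CPM in PC9 and 33.6 and 35.8 CPM in PC9OR cells, a log2 fold change of -0.47 (adjusted p = 0.0317). The relative of ATF4 that is translated in the same manner, ATF5, had 14.9 and 14.4 CPM in PC9 and 8.71 and 7.35 CPM in PC9OR cells, a log2 fold change of -0.86 (adjusted p = 0.023). The C/EBP partners of ATF4 thus changed in opposite directions.

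DDIT3 (CHOP), a stress factor downstream of ATF4, had a log2 fold change of 0.56 (adjusted p = 0.0902), with 15.2 and 22.3 CPM in PC9 and 27.8 and 27.6 CPM in PC9OR cells. Offsets for length left 0.15. ATF3 had 0.63 (adjusted p = 0.207), and PC9OR replicate 1, at 10.2 CPM, was well above the other PC9OR library at 5.53 CPM. NUPR1, a small stress protein of the nucleus, was near the floor, at 0.13 and 0.24 CPM in PC9 and 0.66 and 0.44 CPM in PC9OR cells, where 3 counts equal 0.0936 to 0.128 CPM. The kinases EIF2AK3 and EIF2AK4 had log2 fold changes of -0.24 and -0.30 without a call, and -0.01 and 0.06 with the offsets for length.

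Of 7 feedback and stress targets, 2 rose (DDIT4 and TRIB3), 1 fell (VLDLR) and 4 passed neither test. That is 28.6% higher and 14.3% lower, beside 15.6% and 20.8% of all genes tested. DDIT4, an inhibitor of the growth kinase mTORC1, had 79.1 and 115 CPM in PC9 and 248 and 252 CPM in PC9OR cells. Its log2 fold change was 1.37 (SE 0.20, adjusted p = 0.0107 by the quasi-likelihood test of edgeR with Benjamini-Hochberg adjustment). TRIB3, a pseudokinase that feeds back on ATF4, had 85.9 and 95.9 CPM in PC9 and 148 and 123 CPM in PC9OR cells, a log2 fold change of 0.57 (adjusted p = 0.0325). DDIT4 lies on chromosome 10 of GRCh37 from 74033678 to 74035794, among 20 tested genes with a median log2 fold change of 0.14. VLDLR, a lipoprotein receptor, had 15.7 and 12.5 CPM in PC9 and 5.62 and 4.63 CPM in PC9OR cells, a log2 fold change of -1.46 (adjusted p = 0.0117). With the offsets for length VLDLR had -1.13. Its 15 nearest tested genes, on chromosome 9 of GRCh37 around 2621182 to 2660056, had a median of -0.31.

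CHAC1, which degrades glutathione and is often read as a sign of ATF4 activity, had 2.39 and 1.18 CPM in PC9 and 3.75 and 1.69 CPM in PC9OR cells. The lines overlapped, and its log2 fold change of 0.61 had an SE of 0.56 (adjusted p = 0.42). SESN2, a leucine sensor, had 0.15, PPP1R15A, the phosphatase subunit that acts on eIF2, had -0.09 and EIF4EBP1, which restrains translation, had 0.21, or -0.29 with the offsets for length. These 3 genes overlapped between the lines and had no call. Of the secreted proteins, GDF15 had a log2 fold change of 0.47 (adjusted p = 0.0933) and STC2 one of -0.36 (adjusted p = 0.0651), which were 0.18 and -0.02 with the offsets for length.

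On the FPKM scale the order of the members was led by ATF4, TARS1 and SLC38A2 in PC9 cells, at 206, 161 and 156 FPKM, and TARS1, at 161 ± 23.5 FPKM, and SLC38A2, at 156 ± 12.7 FPKM (SD, n = 2), did not differ beyond their spread. ASNS was 47th of 51 in PC9 cells, at 1.64 ± 0.219 FPKM (SD, n = 2), and 41st in PC9OR cells, at 7.50 ± 0.587 FPKM (SD, n = 2). In the expected counts, 33 members had whole counts in every library and 18 had a fraction in at least 1 because the counting tool divides reads that match several genes between them.

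No mitochondrial synthetase fell, and in each further list of other genes of the pathway some rose and some fell. Of all genes tested, 15.6% were higher and 20.8% lower. Of 15 other sensors and eIF2 genes, 2 rose and 3 fell (13.3% and 20%), near those shares. Of 19 other reported ATF4 targets, 2 rose and 6 fell (10.5% and 31.6%). JDP2, a repressor of the same protein family, had a log2 fold change of 2.07 (adjusted p = 0.00447 by the quasi-likelihood test of edgeR). The autophagy gene MAP1LC3B had -1.53 (adjusted p = 0.00501 by the same test). NIBAN1 had -1.01 (adjusted p = 0.00773 by the same test), or -0.52 with the offsets for length. Of 12 other genes of amino acid synthesis, 1 rose and 1 fell (8.33% each). Of 8 other amino acid transporters, 2 rose and 4 fell (25% and 50%). Their median log2 fold change was -0.90, or -0.53 with the offsets for length. Of the 2 that rose, SLC43A1 passed the filter only through PC9OR. Among the 8 transporters, SLC7A7 had a log2 fold change of 1.39, SLC7A6 one of -1.10, SLC36A4 one of -1.66 and SLC38A7 one of -1.05. With the offsets for length these were 1.31, -0.67, -1.26 and -0.84. SLC43A1 had 0 counts in PC9 cells, so against 3 counts per library its difference was at least 3.50-fold.

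The other arms of the unfolded protein response, which do not run through ATF4, had 1 gene higher and 5 lower of 10. That is 10% and 50%, beside 15.6% and 20.8% of all genes tested. The chaperone gene HSP90B1 had a log2 fold change of -0.98 and the sensor ERN1 one of -2.13. SDF2L1, an endoplasmic reticulum protein, had 11.1 and 17.3 CPM in PC9 and 111 and 87.7 CPM in PC9OR cells, a log2 fold change of 2.80 (adjusted p = 0.00533 by the quasi-likelihood test of edgeR with Benjamini-Hochberg adjustment).

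**Figure D4:**
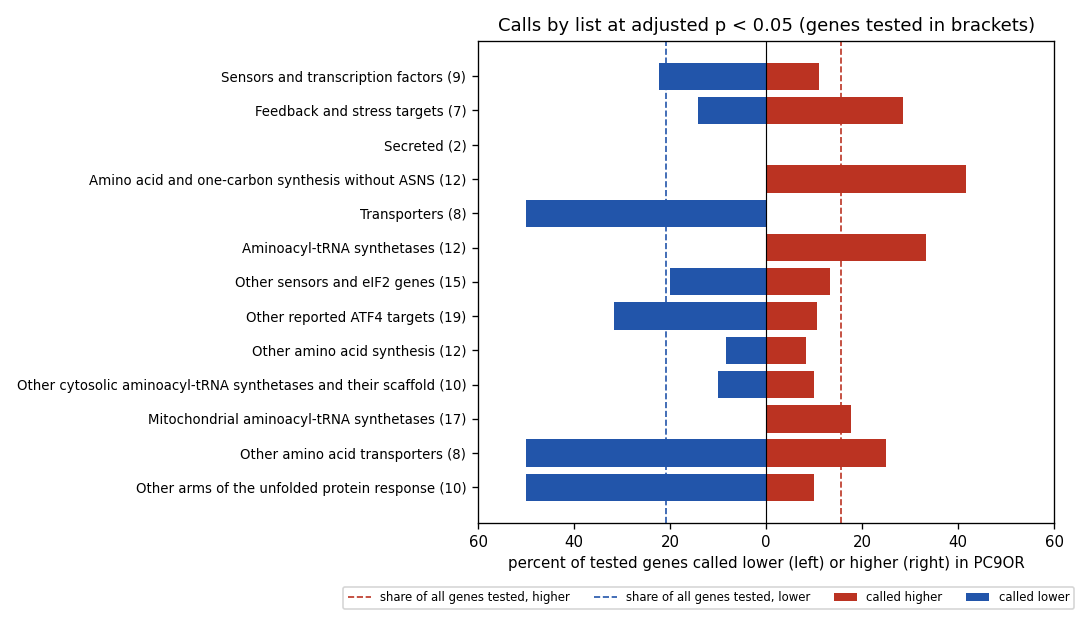
Share of tested genes in each list that were called higher (red, right) or lower (blue, left) in PC9OR cells at an adjusted p under 0.05, in percent, with the number tested in brackets. Dashed lines mark the shares over all genes tested, 15.6% higher and 20.8% lower. Amino acid synthesis and the synthetases on the list had no lower calls and transporters on the list no higher ones.

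The core TGATGNAA was present in the promoter windows of 18 of 44 members with a window, or 40.9%, against 2.68% of the 10752 tested genes with a window and 3.62% of all 35116 windows. The list was drawn from known ATF4 targets, so this share describes how the members were known and is no result of these cells. By role, 7 of 10 synthetases with a window had the core, 5 of 8 transporters and 2 of 9 genes of amino acid synthesis, ASNS and MTHFD1L. Of the other cytosolic synthetases it was found in 0 of 9, and in 1 of 14 mitochondrial ones. ASNS apart, the core was present in 3 of 11 members that rose, 2 of 7 that fell and 11 of 24 that passed neither test. The windows of CTH, CBS, PHGDH and DDIT4 held no such letters. Among all 288 tested genes with the core, the median log2 fold change was 0.01, and 17.0% were higher and 22.9% lower.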

How the data were processed

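RNA of 2 PC9 and 2 PC9OR libraries was extracted with TRIzol and prepared with a stranded TruSeq kit, per the labels. For each gene above 0 the authors deposited an expected count, which is an estimated read number without normalization, together with an FPKM value scaled by library size and transcript length. The submitters' processing notes name Bowtie2 2.2.5, RSEM 1.2.12 and GRCh37, while the strand setting of the counting is not given in the sources used here. Genes carry Entrez identifiers, of which 99.66% matched a symbol, and a gene absent from a file was set to 0.

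After rounding, expected counts were tested with edgeR 4.0.16 under R 4.3.3 (TMM, filterByExpr, estimateDisp, glmQLFit, glmQLFTest), PC9OR against PC9 without pairing, over 13148 genes. A call needed a Benjamini-Hochberg adjusted p under 0.05. The study's methods name DEGseq, which was not installed, so an MA-plot-based model was written anew and used as an alternative. Replicates are labelled as biological, but no source says how they were grown apart, so the p-values measure the spread between these libraries. Replicates of a line differed beyond counting noise (chi-square over its degrees of freedom of 65.5 in PC9 and 9.93 in PC9OR, over genes with at least 20 counts). A floor of 3 counts covers counting error only.

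The members, their roles and the other lists were chosen with earlier results of these data known, and any gene of these lists could be named, those outside the 52 where they changed more than 2-fold at an adjusted p under 0.05 or were among the 3 largest changes of their list. Alternatives were DESeq2 1.42.0 (size factors and Wald test), library totals, other count filters, limma 3.58.1 on log2(FPKM + 1) and log2(FPKM + 0.1), a replicate block, offsets for transcript length fitted per library with mgcv 1.9.3, and each library left out in turn. Offsets for length and GC content were chosen after seeing the data. The scripts were tested on simulated data. The result for 1 gene of the lists is not reported here. Promoter windows of 300 bases and their sequences come from RefSeq (GRCh38.p14), and gene positions from GENCODE lifted to GRCh37.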

Additional observations from a re-analysis of the deposited data

How the results depend on the processing

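The counts of 12 members higher and 7 lower, ASNS apart, beside 2056 and 2734 of all genes, became 27 and 19 beside 5764 and 5705 when replicates were pooled in the MA-plot-based model. They became 4 and 3 beside 806 and 1523 at more than 2-fold change, and 0 and 0 beside 0 and 0 at more than 2-fold and an adjusted p under 0.001, where edgeR gave 27 of the 50 members an unadjusted p under 0.05 and DESeq2's Wald test called 7 of them. With each library left out in turn they ran from 4 to 20 and from 3 to 14, beside 525 to 3932 and 1177 to 3929, and the median log2 fold change of all 51 members, 0.23 as reported, ran from 0.14 to 0.26. Leaving out PC9OR replicate 1 or 2 lost 12 of the 19 calls each time, and leaving out PC9 replicate 2 gained 15. The library left alone in its line is then assumed to vary like the other line. The causes were not tested. The median was 0.16 with offsets for length and 0.16 with these and the replicate block.

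For ASNS the log2 fold change was 1.69 on log2(FPKM + 1), 2.13 on log2(FPKM + 0.1), 2.12 under offsets for length and GC content, and from 2.20 to 2.38 with a library left out. A pseudocount lowers the fold of a gene of few FPKM by construction.

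No source used here states that replicate numbers pair the libraries. Same-numbered libraries had deviations correlated at 0.05 over genes. This cannot exclude pairing, because the difference between the PC9 libraries followed transcript length and that between the PC9OR libraries did not. With the replicate block 13 members were higher and 7 lower, beside 2593 and 2946 of all genes, with DDIT3 (adjusted p = 0.0364) and TARS1 gained and NARS1 lost.

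Directions turned over for some members without a call in either fit. With offsets for length, and again with the block added, these were EIF2AK4 (0.056 and 0.055), EIF4EBP1 (-0.29 and -0.29), PSPH (-0.061 and -0.061) and GPT2 (0.061 and 0.061). Under length and GC offsets they were EIF2AK4 (0.048), PPP1R15A (0.015), EIF4EBP1 (-0.20), STC2 (0.18), SHMT1 (0.12), GPT2 (0.26), AARS1 (0.023) and YARS1 (0.083). With each library left out in turn, CHAC1 ran from -0.068 to 1.20, SESN2 from -0.033 to 0.32, PPP1R15A from -0.22 to 0.027, PSPH from -0.036 to 0.081 and SHMT1 from -0.14 to 0.10. Depth limits NUPR1, CBS, CHAC1 and SLC1A4, which had few counts.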
